A study of Homo sapiens with 8 samples.

Results

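The 9 genes described here encode enzymes that make fatty acids from acetyl-CoA, lengthen them and introduce double bonds. They are *ACLY*, *ACSS2*, *ACACA*, *FASN*, *SCD*, *ELOVL5*, *ELOVL6*, *FADS1* and *FADS2*, and they were listed by function, with earlier results of these data known. All 9 had a row among the 60230 genes of the count table, and all 9 were among the 13400 genes that passed the filter on low counts. RNA was measured in CYP2C19-overexpressing HepG2 cells, a human liver cancer line that carries an added copy of the cytochrome P450 gene *CYP2C19*. There were 4 groups with 2 libraries each, treated with DMSO, the solvent control, or with compound 4, 5 or 6, which the sample labels also name metylcresol, tetrabut and cyclohexil. Every group, the control included, overexpressed CYP2C19 and was grown with blasticidin. Cells without the overexpression were not analysed here, nor do the sources used here say whether the cells came from 1 clone. Each compound was given at its own IC50 and the cells were harvested after a day, so the concentrations were similar but not equal between compounds. Within each group the labels give the time of one library as day 1 and that of the other as day 2, while the methods give 1 incubation time for all cells. The day was therefore taken as the replicate number, and whether the replicates were separate cultures was not stated. The p-values below measure only the spread between these libraries, which may be technical. All values refer to bulk RNA and are relative to the other genes of a library. A smaller share of expressing cells and less RNA per expressing cell cannot be told apart.

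In lipogenic cells such as hepatocytes, citrate that leaves the mitochondria is split into cytosolic acetyl-CoA, which is carboxylated to malonyl-CoA and then condensed to palmitate. Palmitate is lengthened by elongases and desaturated by SCD, whereas FADS1 and FADS2 desaturate dietary polyunsaturated fatty acids. Many of these enzymes are known targets of the SREBP transcription factors, which bind the sterol regulatory element often together with NF-Y at CCAAT boxes.

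Promoter sequence was therefore searched for 4 patterns on both strands in the 250 bases before each start site given by RefSeq (GRCh38.p14). Entries were present for 8 of the 9 genes and not for *FASN*. TCANNCCAC, a form of the sterol regulatory element, was found in 2 of the 8 genes, *ACLY* and *ELOVL5*, against 3.89% of the 27305 genes with an entry. *ELOVL5* passed the test with no compound, and the pattern was found in 0 of the 15 sterol synthesis genes with an entry. CCAAT was found in 5 of 8 genes and in 13 of the 15 sterol synthesis genes, against 37% of all genes. The GC box GGGCGG was found in 7 of 8 and in 14 of the 15 sterol genes, against 46.2%. The E-box CACGTG was found in 1 of 8, *ELOVL5*, and in 1 of the 15, against 7.73%. The following stretches upstream of a RefSeq start show a promoter with the first 2 patterns, one with CCAAT alone and one with neither, all 3 from genes that fell under compounds 4 and 5. *ACLY* is at chr17:41919023-41919272 on the minus strand, *SCD* at chr10:100346983-100347123 on the plus strand and *ELOVL6* at chr4:110198677-110198841 on the minus strand, each 5′ to 3′ on the gene's strand. Capitals mark matches to TCANNCCAC and to CCAAT or its reverse complement ATTGG, none of which overlap.
ACLY: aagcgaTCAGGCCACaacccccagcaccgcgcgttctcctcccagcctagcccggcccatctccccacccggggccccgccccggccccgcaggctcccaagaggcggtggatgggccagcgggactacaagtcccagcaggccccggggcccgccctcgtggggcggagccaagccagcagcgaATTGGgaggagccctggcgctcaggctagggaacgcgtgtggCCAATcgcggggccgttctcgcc
SCD: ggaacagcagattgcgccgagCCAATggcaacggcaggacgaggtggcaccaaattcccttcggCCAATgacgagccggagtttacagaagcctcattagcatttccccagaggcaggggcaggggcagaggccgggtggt
ELOVL6: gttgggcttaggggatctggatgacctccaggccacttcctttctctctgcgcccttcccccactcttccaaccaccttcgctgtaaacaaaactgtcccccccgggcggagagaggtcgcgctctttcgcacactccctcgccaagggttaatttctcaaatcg
The *ACLY* stretch holds 1 match to the first pattern and 2 to the CCAAT pattern, the *SCD* stretch holds 2 CCAAT matches, and the *ELOVL6* stretch holds no match to either. Of each 250-base window, only the longest part that no annotated exon of the gene covers is printed. That part is 250 bases for *ACLY*, 141 for *SCD* and 165 for *ELOVL6*. The *ACLY* and *ELOVL6* stretches lie within the gene positions given below. The window of the other *ACLY* start in RefSeq held 0 matches to the first pattern. A match describes the letters only, and binding was not measured.

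The libraries held between 9791659 and 17814595 counts on genes. All 8 hepatocyte markers examined were expressed, which cannot by itself show that the cells were HepG2 or overexpressed CYP2C19. The summed level of these markers was 42520 to 45647 CPM (counts scaled to the size of each library) under DMSO. It was 30910 to 37085 under compound 4, 36723 to 38023 under compound 5 and 33377 to 38715 under compound 6. *CYP2C19* was detected in all 8 libraries, with 27.7 and 16.4 CPM under DMSO and 21.2 to 52.8 CPM in the treated cells. It was higher with compound 5 (log2-fold change 1.05, adjusted p = 0.04, quasi-likelihood test of edgeR, p-values adjusted by Benjamini-Hochberg), and it reached 0.79 with compound 4 (adjusted p = 0.086) and 0.04 with compound 6 (adjusted p = 0.95). Of 8 markers of fibroblasts, endothelium and blood, 3 passed the filter, *COL1A2* and *PTPRC* were at 0 in every library, and the summed level was 6.87 to 11.6 CPM under DMSO, 25.7 to 27.9 under compound 4, 8.82 to 13.0 under compound 5 and 16.5 to 17.0 under compound 6. Of these markers, *PDGFRB* rose with compound 4 (log2-fold change 1.79, adjusted p = 0.0063), and the hepatocyte markers *AFP* and *APOB* fell with compound 4 by 0.71 and 0.61 (adjusted p = 0.016 and 0.029). The part of these levels in the results was not tested.

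With compounds 4 and 5, 8 of the 9 genes fell, and *ELOVL5* did not pass the test with either. With compound 6, all 9 genes were lower than with DMSO by estimate, and none passed the test. By group mean, DMSO was highest and compound 6 second in all 9 genes.

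The first step, acetyl-CoA supply, is covered by *ACLY* and *ACSS2*. *ACLY* (ENSG00000131473, chr17:41866908-41930542 on GRCh38, minus strand) encodes ATP citrate lyase, which splits citrate into acetyl-CoA and oxaloacetate. Its level was 402 and 396 CPM with DMSO, 214 and 217 with compound 4, 228 and 259.9 with compound 5, and 295 and 288 with compound 6. The libraries of the 4 groups did not overlap. *ACLY* fell with compound 4 by 0.89 on the log2 scale (SE 0.10, adjusted p = 0.0028) and with compound 5 by 0.71 (SE 0.10, adjusted p = 0.0062). With compound 6 the log2-fold change was −0.45 (SE 0.10, adjusted p = 0.066).

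*ACSS2* (ENSG00000131069, chr20:34872146-34927962, plus strand) encodes the cytosolic acetyl-CoA synthetase, which makes acetyl-CoA from acetate. Its level was 74.0 and 67.7 CPM with DMSO, 31.5 and 25.2 with compound 4, 18.9 and 23.5 with compound 5, and 48.4 and 38.2 with compound 6. It was the only one of the 9 genes in which both compound 5 libraries lay below both compound 4 libraries. *ACSS2* had a log2-fold change of −1.32 with compound 4 (SE 0.17, adjusted p = 0.0041), −1.73 with compound 5 (SE 0.17, adjusted p = 0.0019) and −0.71 with compound 6 (SE 0.17, adjusted p = 0.079).

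*ACACA* (ENSG00000278540, chr17:37084988-37406818, minus strand) encodes acetyl-CoA carboxylase 1, which makes the malonyl-CoA used for chain building. Its level was 153 and 163 CPM with DMSO, 87.6 and 114 with compound 4, 98.9 and 119 with compound 5, and 150.4 and 151 with compound 6. The compound 6 libraries lay just below the lower DMSO library, and those of compounds 4 and 5 overlapped each other. *ACACA* fell by 0.65 on the log2 scale with compound 4 (SE 0.14, adjusted p = 0.023) and by 0.53 with compound 5 (SE 0.14, adjusted p = 0.048). With compound 6 the log2-fold change was −0.07, with a 95% interval from −0.38 to 0.24 (adjusted p = 0.83). The call with compound 4 was lost without replicate 1 or 2 of DMSO (adjusted p = 0.073 and 0.18) or replicate 1 of compound 4 (adjusted p = 0.079), and the call with compound 5 without replicate 1 or 2 of DMSO (0.14 and 0.24), replicate 1 of compound 5 (0.23) or replicate 1 or 2 of compound 6 (0.07 and 0.078), and on thinning all libraries to the smallest total (0.051).

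*FASN* (ENSG00000169710, chr17:82078333-82098332, minus strand) encodes fatty acid synthase, the enzyme that assembles palmitate. Its level was 1317 and 1237 CPM with DMSO, 525 and 575 with compound 4, 564 and 726 with compound 5, and 971 and 927 with compound 6. Compound 6 stood apart from both other compounds, which overlapped each other. The log2-fold change was −1.22 with compound 4 (SE 0.13, adjusted p = 0.0021), −0.99 with compound 5 (SE 0.13, adjusted p = 0.0047) and −0.43 with compound 6 (SE 0.13, adjusted p = 0.13).

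The elongases *ELOVL6* and *ELOVL5* behaved unequally. *ELOVL6* (ENSG00000170522, chr4:110045846-110199199, minus strand) encodes the enzyme that lengthens palmitate, and its level was 29.7 and 33.9 CPM with DMSO, 12.9 and 12.9 with compound 4, 10.3 and 14.6 with compound 5, and 23.8 and 24.1 with compound 6. It fell by 1.30 on the log2 scale with compound 4 (SE 0.17, adjusted p = 0.0043) and by 1.34 with compound 5 (SE 0.17, adjusted p = 0.0047), and the log2-fold change with compound 6 was −0.41 (SE 0.17, adjusted p = 0.23). *ELOVL5* (ENSG00000012660, chr6:53267398-53349179, minus strand) encodes the elongase of polyunsaturated fatty acids. Its level was 108.8 and 108.7 CPM with DMSO, 89.0 and 98.5 with compound 4, 100.1 and 97.4 with compound 5, and 104 and 108 with compound 6. Although the treated libraries lay below those of DMSO, the log2-fold changes were only −0.21 with compound 4 (95% interval −0.44 to 0.01, adjusted p = 0.2), −0.14 with compound 5 (−0.36 to 0.08, adjusted p = 0.38) and −0.04 with compound 6 (−0.27 to 0.18, adjusted p = 0.86).

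Among the desaturases, *SCD* (ENSG00000099194, chr10:100347124-100364834, plus strand) encodes the stearoyl-CoA desaturase that makes monounsaturated fatty acids. Its level was 1958 and 1819.5 CPM with DMSO, 844 and 608 with compound 4, 604 and 745 with compound 5, and 1335 and 1084 with compound 6. Compounds 4 and 5 overlapped, and compound 6 lay between them and DMSO. *SCD* had a log2-fold change of −1.38 with compound 4 (SE 0.17, adjusted p = 0.0039), −1.48 with compound 5 (SE 0.17, adjusted p = 0.0031) and −0.64 with compound 6 (SE 0.17, adjusted p = 0.1). The processed pseudogene *SCDP1* held 1 count over all libraries.

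*FADS1* (ENSG00000149485, chr11:61799625-61829318, minus strand) encodes the delta-5 desaturase of polyunsaturated fatty acids. Its level was 221 and 229.8 CPM with DMSO, 127 and 108 with compound 4, 115 and 139.7 with compound 5, and 160.3 and 146 with compound 6. It fell by 0.94 on the log2 scale with compound 4 (SE 0.13, adjusted p = 0.005) and by 0.82 with compound 5 (SE 0.13, adjusted p = 0.0093), and the log2-fold change with compound 6 was −0.56 (SE 0.13, adjusted p = 0.074).

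*FADS2* (ENSG00000134824, chr11:61792980-61867354, plus strand) encodes the delta-6 desaturase, and of the 9 genes it had the lowest level and the widest errors. Its level was 14.1 and 15.9 CPM with DMSO, 3.38 and 3.04 with compound 4, 3.46 and 8.08 with compound 5, and 8.34 and 5.31 with compound 6. The libraries of compounds 5 and 6 overlapped, and replicate 2 of compound 5 lay well above replicate 1. *FADS2* had a log2-fold change of −2.23 with compound 4 (SE 0.37, adjusted p = 0.0094), −1.35 with compound 5 (SE 0.34, adjusted p = 0.041) and −1.14 with compound 6 (SE 0.34, adjusted p = 0.13). The compound 5 value was −2.11 without replicate 2 of compound 5 and −0.91 without replicate 1 (adjusted p = 0.16). That call was also lost without replicate 1 or 2 of DMSO (adjusted p = 0.12 and 0.2) or of compound 4 (0.053 and 0.052) and in a fit of only the 4 libraries compared (0.062), and the call with compound 4 without replicate 2 of compound 4 (0.084). In GENCODE 29, *FADS2* shares 49 exon bases with *FEN1*, a DNA repair nuclease gene on the same strand that held 6862 counts over all libraries against 729 for *FADS2*, and 490 exon bases with *FADS1* on the opposite strand. *FEN1* was at 83.7 and 100.1 CPM with DMSO, 59.8 and 54.5 with compound 4, 57.3 and 91.4 with compound 5, and 55.1 and 59.8 with compound 6. Reads from the shared bases could have been divided between these genes, and the counting setting for strand was not stated, so the *FADS2* values are uncertain, and their part in the result was not tested.

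Compound 4 lowered 8 of the 9 genes, whereas 3.91% of all tested genes were lower past the threshold of 0.05. At an unadjusted p below 0.05 the number was also 8, against 27.5% of all genes. The median log2-fold change of the 9 genes was −1.22, against 0.01 over all tested genes. Both compound 4 libraries lay below both DMSO libraries in 9 of 9 genes, against 28% of all genes. Without replicate 2 of DMSO, 4 of the 9 genes passed the test, against 0.314% of all genes in either direction, namely *ACLY*, *ACSS2*, *FASN* and *SCD*, whereas *ACACA*, *ELOVL6*, *FADS1* and *FADS2* had adjusted p = 0.18, 0.063, 0.065 and 0.085.

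Compound 5 also lowered 8 of 9 genes, against 2.95% of all tested genes, with a median of −0.99 against 0.00 over all tested genes. The number at an unadjusted p below 0.05 was 8, against 28.4% of all genes. Both of its libraries lay below both DMSO libraries in 9 of 9 genes, against 28.5% of all genes. The number past the test was 4 without replicate 1 of DMSO, 3 without replicate 2 of DMSO and 5 without replicate 1 of compound 5 (0.556%, 0.335% and 0.857% of all genes in either direction), and *ACSS2*, *FASN* and *SCD* passed in each of these 3 fits. In the same fits, the adjusted p of the calls lost in *ACLY*, *ELOVL6* and *FADS1* was 0.058 to 0.09. The comparisons of compounds 4 and 5 with DMSO share the DMSO libraries.

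With compound 6, 0 of 9 genes passed the edgeR test, against 0.0821% of all tested genes that were lower past the threshold, and 7 of 9 had an unadjusted p below 0.05, against 18.6% of all genes. The median log2-fold change was −0.45, against 0.02 over all tested genes, and both compound 6 libraries lay below both DMSO libraries in 9 of 9 genes, against 26% of all genes. With the Wald test of DESeq2, 5 genes passed (*ACLY*, *ACSS2*, *FASN*, *SCD* and *FADS1*), against 4.08% of all genes in either direction. With edgeR the number was 6 in a fit of only the 4 libraries compared (7.87% of all genes), 6 without the filter on low counts (5.87%), 5 without replicate 1 of compound 5 (3.14%) and 4 without replicate 2 of compound 5 (2.87%). *ACLY*, *ACSS2* and *FADS1* were in each of these sets. The plot of changes against DMSO sets the 3 compounds side by side.

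**Figure D1:**
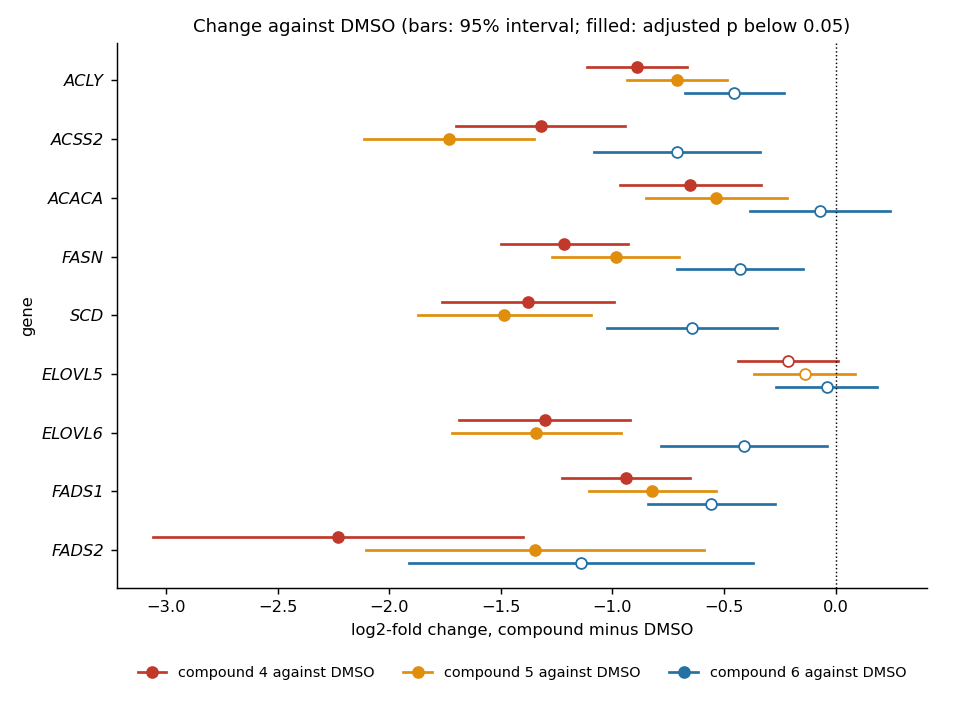
Fitted log2-fold change of each gene (vertical axis) for each compound against DMSO (horizontal axis, log2 units), with 95% intervals from edgeR as bars and filled points where the adjusted p was below 0.05. *ELOVL5* is open for all 3 compounds, and the other 8 genes are filled for compounds 4 and 5 and open for compound 6, whose points lie between −1.14 and −0.04.

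Relative to the DMSO mean on the log2 CPM scale, the median of the 9 genes was −1.15 in both libraries of compound 4, −1.18 and −0.81 in replicates 1 and 2 of compound 5, and −0.44 and −0.47 in replicates 1 and 2 of compound 6. The SD of these medians between the 2 libraries was 0.0029 for compound 4, 0.26 for compound 5 and 0.023 for compound 6. It describes the medians and not the agreement of single genes. In replicates 1 and 2 of compound 4, *SCD* was at 844 and 608 CPM and *ACACA* at 87.6 and 114, in opposite directions. Across the 8 libraries, which fall into 4 groups and share their treatments, Pearson's r of each gene with the mean of the other 8 was lowest for *ELOVL5*, at 0.78, followed by *ACACA* at 0.87, and highest for *FASN* and *ACLY*, at 0.98. Over all 13400 tested genes, those whose log2 CPM most resembled the mean of the 9 genes were *FDFT1*, squalene synthase (r = 0.991), *SLC23A1*, a vitamin C transporter (r = 0.99), *PNPLA3*, a lipid droplet protein (r = 0.99), *HSD17B7*, a sterol synthesis enzyme (r = 0.988), and *AMOT*, angiomotin (r = 0.985), each over 8 libraries.

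Measured per kilobase of merged exon, the DMSO level was highest for *SCD* at 352 CPM per kb, followed by *FASN* at 136 and *ACLY* at 76.5. Merged exons join those of all annotated transcripts of a gene, 11026 bases for *FADS2* and 10230 for *FADS1*. The lengths of the transcripts expressed were not used, so the order of the genes is approximate. *ELOVL5* stood at 28.5, *FADS1* at 22.02, *ACSS2* at 13.2, *ACACA* at 12.2, *ELOVL6* at 4.36 and *FADS2* at 1.36 CPM per kb. With compound 4 the level per kb was 135 for *SCD*, 58.7 for *FASN* and 41.3 for *ACLY*, and these remained the 3 highest of the 9 genes. With compound 5 the corresponding levels per kb were 126, 68.9 and 46.7, and with compound 6 they were 226, 101 and 55.9. Falls of over 1 on the log2 scale with compounds 4 or 5 occurred both at the top of the range, in *SCD* and *FASN*, and at its lower end, in *ELOVL6* and *FADS2*.

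The 3 compounds are related bisphenols, so they were compared with each other in the same fit, as 3 pairs. Compounds 4 and 6 share a methylene bridge and ring methyl groups and carry tert-butyl and cyclohexyl groups, respectively. Compound 5 has an ethylidene bridge and tert-butyl groups in place of the methyl groups of compound 4. Because each compound was given at its own IC50, at similar concentrations, differences of compound and of concentration cannot be told apart.

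Compounds 4 and 5 differed in none of the 9 genes past the test with edgeR (0 of 9, against 0.313% of all tested genes) or with DESeq2, and 2 of 9 had an unadjusted p below 0.05, against 16.2% of all genes. *ACSS2* was higher with compound 4 by estimate, with a log2-fold change of 0.41 (95% interval 0.02 to 0.80, adjusted p = 0.29). For *FADS2* the estimate was −0.88, compound 4 minus compound 5 (95% interval −1.73 to −0.03, adjusted p = 0.3). With replicate 2 of compound 5 left out the *FADS2* value was −0.11, with replicate 1 left out it was −1.33, and the *ACSS2* value was 0.24 without replicate 1 of compound 4 and 0.58 without replicate 2 of compound 5. The intervals of the other 7 genes included 0. The median difference was −0.12, against −0.01 over all tested genes. For *ELOVL6* the difference was 0.04 (95% interval −0.36 to 0.43) and for *SCD* 0.11 (−0.27 to 0.49).

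Between compounds 4 and 6, all 9 genes were lower with compound 4, and both of its libraries lay below both compound 6 libraries in 9 of 9 genes, against 19.6% of all tested genes. The edgeR test called 0 of 9 and 0 of all 13400 genes (0%), 8 of 9 genes had an unadjusted p below 0.05, against 7.05% of all genes, and the DESeq2 Wald test called 4 genes (*ACACA*, *FASN*, *ELOVL6* and *SCD*), against 0.44% of all genes. Without the filter on low counts edgeR called 6 genes (1.12% of all genes), and it called 1, *FASN*, both without replicate 1 and without replicate 2 of compound 5 (0.0726% and 0.0944%). The median difference was −0.61, against −0.01 over all tested genes. The largest in size were −1.09 for *FADS2* (SE 0.39, adjusted p = 0.58), −0.89 for *ELOVL6* (SE 0.17, adjusted p = 0.22) and −0.79 for *FASN* (SE 0.13, adjusted p = 0.14).

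Between compounds 6 and 5, 2 of 9 genes were higher with compound 6 past the test, against 0.507% of all tested genes. These were *ACSS2*, with a log2-fold change of 1.02 (SE 0.17, 95% interval 0.64 to 1.41, adjusted p = 0.028), and *ELOVL6*, with 0.93 (SE 0.17, 95% interval 0.55 to 1.31, adjusted p = 0.04). *SCD* stood at 0.84 (SE 0.17, adjusted p = 0.053, and 0.044 with the replicate block) and *FASN* at 0.56 (SE 0.13, adjusted p = 0.068). Both compound 6 libraries lay above both compound 5 libraries in 8 of 9 genes, against 25.1% of all genes, with *FADS2* as the exception. At an unadjusted p below 0.05 there were 6 of 9, against 18.5% of all genes. The median difference was 0.47, against 0.00 over all tested genes. For *ACSS2* the adjusted p was 0.057 to 0.28 where the call was lost on leaving out 1 library, and for *ELOVL6*, which also missed the threshold without replicate 1 or 2 of compound 4 (0.064 and 0.063), it was 0.063 to 0.26. None of the 9 genes passed in a fit of only the 4 libraries compared, or without replicate 1 or 2 of DMSO, replicate 1 of compound 5, or replicate 1 or 2 of compound 6, and 5 genes passed without the filter on low counts, against 4.29% of all genes.

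**Figure D2:**
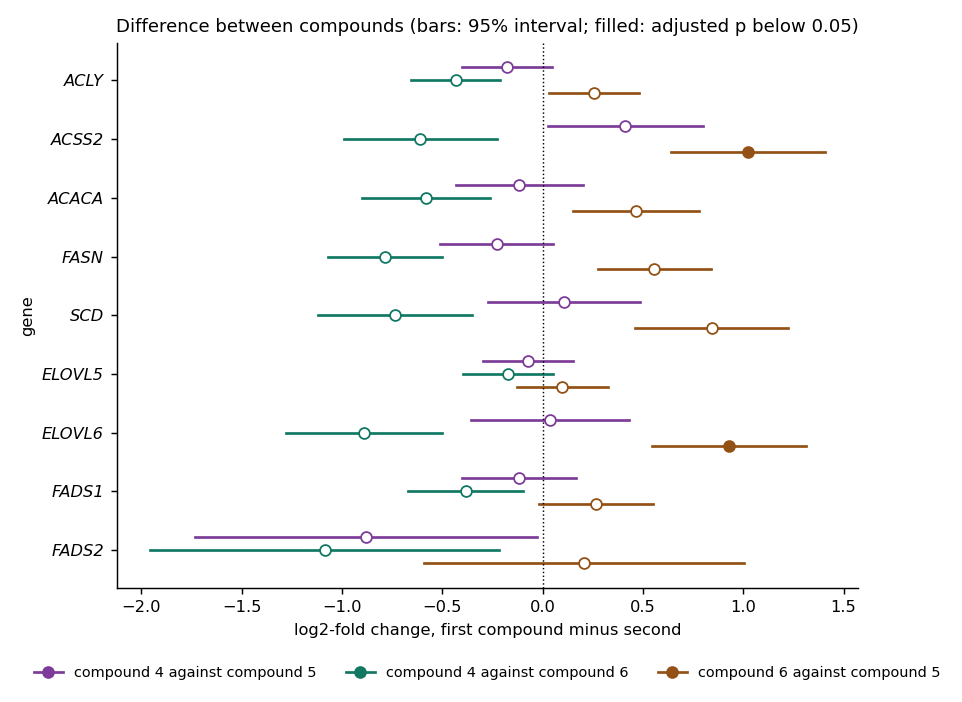
Fitted log2 difference of each gene (vertical axis) between pairs of compounds, first minus second (horizontal axis, log2 units), with 95% intervals from edgeR as bars and filled points where the adjusted p was below 0.05. Only *ACSS2* and *ELOVL6* are filled, both for compound 6 against compound 5, and 7 of 9 intervals for compound 4 against compound 5 include 0.

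Ordered by mean CPM, DMSO was highest and compound 6 second in 9 of 9 genes. Compound 4 was lowest in 6 genes (*ACLY*, *ACACA*, *FASN*, *ELOVL5*, *FADS1* and *FADS2*) and compound 5 in 3 (*ACSS2*, *SCD* and *ELOVL6*). The libraries of compounds 4 and 5 overlapped in *ACACA*, *FASN*, *SCD*, *ELOVL5*, *ELOVL6* and *FADS1*. Those of compound 4 lay below both of compound 5 in 2 of 9 genes, *ACLY* and *FADS2*, against 21.8% of all tested genes, and above them in 1 of 9, *ACSS2*, against 22.7%.

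The neighbouring steps of the pathway were examined with lists drawn up by function and tested with edgeR. For all these lists, the share of all tested genes that fell past the threshold was 3.91%, 2.95% and 0.0821% with compounds 4, 5 and 6. The share at an unadjusted p below 0.05 was 27.5%, 28.4% and 18.6%. Counts at an unadjusted p below 0.05 take rises and falls together. Of 8 tested genes that supply acetyl-CoA, citrate or NADPH to the 9 enzymes, 5 fell with compound 4, 2 with compound 5 and 0 with compound 6 (3 at an unadjusted p below 0.05), with median log2-fold changes of −0.58, −0.23 and −0.17. *SLC25A1*, the mitochondrial citrate carrier that exports the substrate of ACLY, had log2-fold changes of −1.10 with compound 4 (adjusted p = 0.024), −1.28 with compound 5 (adjusted p = 0.017) and −0.61 with compound 6 (adjusted p = 0.21). *IDH1*, the cytosolic isocitrate dehydrogenase that makes NADPH, had −1.05 (adjusted p = 0.0063), −0.92 (adjusted p = 0.012) and −0.44 (adjusted p = 0.17) in the same order. *ACO1*, the cytosolic aconitase, fell with compound 4 by 0.55 on the log2 scale (adjusted p = 0.022). *ACSS1*, the mitochondrial acetyl-CoA synthetase, fell with compound 4 by 0.60 (adjusted p = 0.037) and was named after its values were seen. *ME1*, malic enzyme, was listed at 0 counts in all 8 libraries and was not tested.

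Of 8 tested genes of malonyl-CoA handling and mitochondrial fatty acid synthesis, 0 passed with compound 4 (1 at an unadjusted p below 0.05), 3 fell with compound 5 and 0 passed with compound 6 (0 at an unadjusted p below 0.05), with medians of −0.24, −0.40 and −0.07. The 3 genes were *ACACB*, the acetyl-CoA carboxylase paralogue at the mitochondrion, with a log2-fold change of −0.82 (adjusted p = 0.042), and 2 genes of the mitochondrial pathway, *MECR* at −0.68 (adjusted p = 0.036) and *CBR4* at −0.85 (adjusted p = 0.042). With compound 4 *ACACB* was at −0.48 (adjusted p = 0.16).

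Of 8 other tested genes of the elongation cycle, 1 fell with compound 4 and 0 passed with compounds 5 and 6 (1 and 4 at an unadjusted p below 0.05), with medians of −0.17, −0.09 and −0.25. It was *HSD17B12*, the ketoacyl-CoA reductase of the cycle, at −0.54 (adjusted p = 0.018). Of 5 tested desaturases and electron carriers beside SCD, FADS1 and FADS2, 0 passed with compounds 4 and 6 (3 and 2 at an unadjusted p below 0.05) and 1 fell with compound 5, *CYB5B*, the outer mitochondrial membrane cytochrome b5, at −0.59 (adjusted p = 0.023), and the medians were 0.32, 0.01 and −0.09 for compounds 4, 5 and 6. Of those at an unadjusted p below 0.05, *FADS3* and *CYB5R1* were higher with compound 4 and *FADS3* with compound 6. *CYB5B* was lower with both of these compounds. With compound 5, *FADS3* and *CYB5R1* were also higher by estimate, at 0.48 and 0.43 (adjusted p = 0.055 and 0.094). *FADS3* and *CYB5R1* were named after their values were seen. Of 5 long-chain acyl-CoA synthetases, which activate fatty acids, 1 fell with compound 4, *ACSL6*, at −1.42 (adjusted p = 0.034), 0 passed with compounds 5 and 6 (2 and 2 at an unadjusted p below 0.05), and the medians were −0.12, −0.01 and 0.10. *ACSL6* was expressed at a low level, with 31 and 35 counts with DMSO and 11 and 16 with compound 4. Of those at an unadjusted p below 0.05, *ACSL5* was higher with compound 5 (0.96) and *ACSL3* with compound 6 (0.33), whereas *ACSL6* was lower with both. *ACSL5* and *ACSL3* were named after their values were seen.

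Of 19 tested regulators of lipogenesis, 1 rose and 2 fell with compound 4, 2 rose and 3 fell with compound 5, and 0 passed with compound 6 (6 at an unadjusted p below 0.05). Of these 6, *SREBF2* was lower with compound 6, and *NR1H3*, *USF2*, *PRKAA1*, *PRKAA2* and *TRIB3*, named here after their values were seen, were higher. Over all tested genes, 5.6% rose and 3.91% fell with compound 4, and 5.35% rose and 2.95% fell with compound 5. *SREBF2*, the SREBP of sterol synthesis, fell by 0.55 with compound 4 (adjusted p = 0.015) and by 0.64 with compound 5 (adjusted p = 0.011), and it was at −0.24 with compound 6 (adjusted p = 0.26). *SREBF1*, which encodes the SREBP best known for fatty acid synthesis, was at 100.6 and 91.2 CPM with DMSO, 98.2 and 81.2 with compound 4, 73.4 and 84.0 with compound 5, and 108 and 99.3 with compound 6. Its log2-fold changes were −0.10 (adjusted p = 0.67), −0.28 (adjusted p = 0.18) and 0.11 (adjusted p = 0.68) for compounds 4, 5 and 6, with 95% intervals from −0.39 to 0.19, −0.57 to 0.00 and −0.18 to 0.40. *MLXIPL*, which encodes the carbohydrate response factor ChREBP, fell by 0.55 with compound 4 (adjusted p = 0.016) and by 0.49 with compound 5 (adjusted p = 0.026) and was at 0.00 with compound 6 (adjusted p = 0.99). *USF2*, an E-box factor, rose by 0.65 and 0.51 with compounds 4 and 5 (adjusted p = 0.012 and 0.029), and *MLX*, the partner of ChREBP, rose by 0.62 with compound 5 (adjusted p = 0.025). The remaining call was *MBTPS2*, a protease that releases SREBP, which fell by 0.45 with compound 5 (adjusted p = 0.047) and was named after its values were seen. *INSIG1*, which retains SREBP in the endoplasmic reticulum, was likewise listed at 0 counts in all 8 libraries and could not be tested, and whether either 0 reflects expression or the quantification was not tested.

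Of the 20 sterol synthesis enzymes, the branch that shares cytosolic acetyl-CoA with the 9 genes, 19 fell past the threshold with compound 4, 19 with compound 5 and 6 with compound 6. The shares of all tested genes were 3.91%, 2.95% and 0.0821%. With compound 6, 19 of the 20 had an unadjusted p below 0.05, against 18.6% of all genes. In 19 of the 20, both compound 6 libraries lay below both DMSO libraries, against 26%. The median log2-fold changes of the 20 enzymes were −1.59, −1.54 and −0.91 with compounds 4, 5 and 6, against −1.22, −0.99 and −0.45 for the 9 genes of fatty acid synthesis and desaturation. Both lists had their smallest median in size with compound 6, and whether they differed from each other was not tested. Between compounds 6 and 5, 6 of the 20 sterol genes were higher with compound 6 past the threshold, against 0.507% of all tested genes. The median of the 20 was 0.55.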

How the data were processed

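RNA from 8 samples of CYP2C19-overexpressing HepG2 cells was sequenced by the authors as paired-end reads from directional libraries. Per the methods and the submitters' processing notes, the authors checked the reads with FastQC 0.12.0 and quantified them with Salmon 1.5.0 on a GENCODE transcriptome, and deposited gene-level counts, obtained through tximeta, as whole numbers that were not normalized. The labels of DMSO replicate 1 and compound 4 replicate 1 hold the word merged, and they do not say what was merged. Totals per library ranged from 9791659 to 17814595, so that the lowest of the 9 genes, *FADS2*, rests on 36 to 190 counts per library.

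The counts were fitted with edgeR 4.0.16 in R 4.3.3 (TMM factors, filterByExpr with a minimum count of 10, quasi-likelihood test, 1 fit of 8 libraries without a block). P-values were adjusted over 13400 genes by the Benjamini-Hochberg method with a threshold of 0.05. Salmon's offsets for transcript length were not used. With 2 libraries against 2, no permutation test can reach the threshold, and none was run. The procedure was tested on simulated data. CPM are TMM-scaled, and 0.5 CPM was added before log2 for values of single libraries. Positions and exons were taken from GENCODE 29 on GRCh38, which is not the release of the authors' index. Promoter sequences are from RefSeq (GRCh38.p14).

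The 9 genes and all lists were chosen with earlier results of these data known, so that lists are described by counts and medians without a test. Of each companion list, the at most 4 genes with the smallest adjusted p among those past the threshold against DMSO were named, together with *SREBF1*, *SREBF2*, *INSIG1* and *MLXIPL*, and so were the 5 genes most similar to the mean of the 9. Not every gene that this rule takes is reported here. The pairing of replicates comes from the day in the labels. Over the 6 pairs of groups, the deviations of same-numbered libraries correlated at −0.16 to 0.30 across genes. Scaled by library totals, replicates differed by more than sampling noise in every group (median chi-square per gene 1.43 to 3.22). TMM factors were not applied there, so these values also hold differences in scaling. Alternatives tried were a replicate block, DESeq2 1.42.0 with its Wald test, only the 4 libraries compared, the size factors of DESeq2, no filter, at least 10 counts in every library, leaving out each library, and thinning to the smallest total. Figures were drawn with matplotlib 3.10.9.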

Additional observations from a re-analysis of the deposited data

Results flagged for a closer look

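The responses to compounds 6 and 5 differed in a direct test of the difference for *ACSS2*, the cytosolic acetyl-CoA synthetase (log2-fold change 1.02, compound 6 minus compound 5, SE 0.17, adjusted p = 0.028, edgeR quasi-likelihood test with Benjamini-Hochberg adjustment), with both compound 6 libraries above both compound 5 libraries. The same held for *ELOVL6*, the elongase of palmitate (0.93, SE 0.17, adjusted p = 0.04). The groups of 2 libraries were too small to be examined for single libraries that stand apart. Both calls were lost in a fit of only the 4 libraries compared (adjusted p = 0.069 for *ACSS2* and 0.11 for *ELOVL6*). On thinning to the smallest total, the *ACSS2* call was also lost (adjusted p = 0.054). Over the 15 alternatives tried, the call was lost in 7 for *ACSS2* and in 8 for *ELOVL6*.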

How the results depend on the processing

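Each fold change of the 9 genes was recomputed under 15 alternatives, and those of the companion lists were not. Of 135 values per comparison, 128 kept direction and side of the threshold for compound 4 against DMSO, 117 for compound 5 and 109 for compound 6, with 7 and 18 calls lost for compounds 4 and 5, 26 gained for compound 6 and none reversed. Leaving out 1 library at a time gave 4 to 8 of the 9 genes past the test with compound 4, 3 to 8 with compound 5, 0 to 5 with compound 6, 0 to 0 for compound 4 against 5, 0 to 1 for compound 4 against 6 and 0 to 3 for compound 6 against 5. The medians then ranged from −1.22 to −1.16, −1.17 to −0.83, −0.51 to −0.43, −0.24 to 0.02, −0.77 to −0.52 and 0.34 to 0.75, in the same order. A group left with 1 library was assumed to vary like the others. In the following, the share of all genes called in either direction stands in brackets. The DESeq2 Wald test called 5 genes for compound 6 against DMSO (4.08%), 4 for compound 4 against 6 (0.44%) and 4 for compound 6 against 5 (2.83%). A fit of only the 4 libraries compared called 6 genes for compound 6 against DMSO (7.87%) and 0 for compound 6 against 5 (0.376%). Without a filter on low counts, 6 genes passed for compound 6 against DMSO (5.87%) and 1, *FADS2*, for compound 4 against 5 (3.25%). In the same fit, 6 genes passed for compound 4 against 6 (1.12%) and 5 for compound 6 against 5 (4.29%). The cause of these shifts was not tested. With the replicate block, 8, 8 and 0 genes passed for compounds 4, 5 and 6 against DMSO (12.7%, 10.7% and 0.507%). Between compounds, 0 passed for compound 4 against 5 (0.955%), 0 for compound 4 against 6 (0.00746%) and 3 for compound 6 against 5 (2.01%). The gain was *SCD* (adjusted p = 0.044), and the block changed no other call among the 9 genes. Signs reversed in 8 values, all between compounds, none past the test and each on leaving out 1 library. Between compounds 4 and 5 the values on leaving out 1 library ranged from −0.32 to 0.053 for *ACACA* (above 0 at 0.053 without compound 4 replicate 1 and 0.024 without compound 5 replicate 2), from −0.15 to 0.32 for *SCD* (−0.15 without compound 4 replicate 1 and −0.029 without compound 5 replicate 1), from −0.17 to 0.32 for *ELOVL6* (−0.17 without compound 5 replicate 1) and from −0.24 to 0.027 for *FADS1* (0.027 without compound 5 replicate 2). Between compounds 6 and 5 they ranged from −0.25 to 0.97 for *FADS2* (−0.25 without compound 5 replicate 1 and −0.16 without compound 6 replicate 1).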
